A study of Mus musculus with 72 samples.

Results

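The 36 tumours of this 2 by 2 experiment were compared to ask, gene by gene, whether the change produced by bintrafusp alfa differed between irradiated and unirradiated tumours. Every tumour was used, since the comparison needs all 4 treatment groups, and each group held 9 mice. All mice were female BALB/c, 6 to 12 weeks old, and carried 4T1 tumours, which grow from a murine mammary carcinoma cell line. Cells were placed in the thigh muscle 6 days before treatment, although the sample labels call the tumours orthotopic, and tumours were taken 6 days after treatment. The control group received 400 μg of an isotype control antibody. The radiation group received the same isotype control with irradiation (RT); neither the labels nor the design text give its dose. The third group received 492 μg of bintrafusp alfa (labelled M7824, here BA), and the combination group received BA with irradiation.

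BA joins a PD-L1 antibody to the outer part of TGF-β receptor II, so 1 molecule blocks the PD-1 checkpoint and traps TGF-β in the same tissue. PD-L1 restrains T cells through PD-1, and TGF-β acts on fibroblasts, on regulatory T cells and on the differentiation of macrophages and neutrophils. Radiation damages DNA, arrests or kills dividing cells, and draws monocytes and neutrophils into the tumour. In a 2 by 2 design the 2 treatments act independently on the log scale when the change with BA is the same with and without radiation. The interaction is the departure from that rule, computed here as the log2 fold change with BA among irradiated tumours minus the log2 fold change with BA among unirradiated tumours. A negative interaction means that the change with BA was lower (less of a rise, or more of a fall) in irradiated tumours, and a positive interaction means the reverse.

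RNA from each tumour was read with 2 amplicon panels, one for immuno-oncology genes and a custom one built around TGF-β targets, fibrosis and the response to DNA damage. Of the 1224 genes on the panels, 1038 passed the filter on low counts. Totals ran from 959532 to 2616197 counts per tumour on the larger panel and from 314621 to 841046 on the smaller. The epithelial marker Epcam was measured at 4172 to 14440 CPM (counts scaled by library total) over the 36 tumours; the panels used here held no Krt8, Krt18 or Cdh1. The skeletal muscle genes Mb, Myod1 and Pvalb were also read, with summed levels of 271 to 8062 CPM in control, 458 to 5150 in BA, 391 to 2752 in RT and 572 to 11380 in BA plus RT tumours. Muscle RNA thus varied widely between mice of a group; none of the 3 genes had a called interaction, and the part of muscle in the results was not tested. Because tumours were read in bulk, fewer cells of a type and less RNA per cell cannot be told apart anywhere below. CPM compare 1 gene between tumours, not different genes with each other, because amplicons differ in efficiency.

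At an adjusted p under 0.05 (edgeR quasi-likelihood test, Benjamini-Hochberg over all 1038 genes), 86 genes, 8.29% of those tested, had an interaction. Of these, 51 genes (4.91%) were negative and 35 genes (3.37%) were positive, so that 40.7% were positive; with DESeq2's Wald test 111 genes were called and 52.3% were positive. Leaving out control mouse 8 and BA plus RT mouse 40, known from earlier results of these data to stand apart, raised the count to 151. These were 93 negative and 58 positive of 1040 genes tested, the background for list counts without these 2 mice. By the median correlation with the other mice of their group, control mouse 6 (0.957) and BA plus RT mouse 45 (0.973) lay further out than mice 8 (0.970) and 40 (0.974); leaving out all 4, a setting chosen after seeing the data, raised the count to 182. All 86 genes stayed called without the 4 mice, and all 86 had the same sign when the difference of differences was taken on the CPM scale in place of the log2 scale. The median interaction over all tested genes was 0.02 on the log2 scale.

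The single contrasts called more genes for BA in unirradiated than in irradiated tumours, which compares counts and is no test. Without radiation 280 genes (27%) were called, 130 higher (12.5%) and 150 lower (14.5%). With radiation 112 genes (10.8%) were called, 38 higher (3.66%) and 74 lower (7.13%). The calls shared by both settings with the same direction numbered 48, which was 17.1% of the calls without and 42.9% of the calls with radiation, and 6 genes were called in opposite directions. Across the 1038 genes the correlation of the 2 changes was 0.585; they share no mice, but genes are not independent of each other. Radiation called 432 genes without BA (41.6%) and 555 with BA (53.5%).

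**Figure D1:**
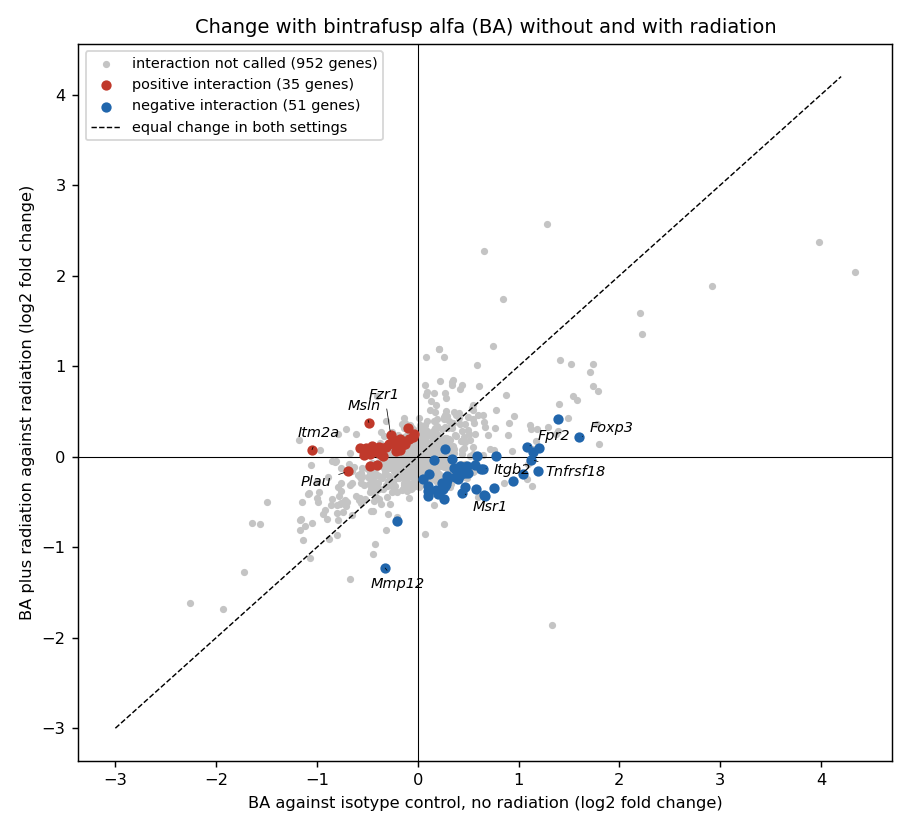
Log2 fold change with BA in unirradiated tumours (horizontal axis) against that in irradiated tumours (vertical axis) for 1038 genes, each point 1 gene from 36 tumours. The 51 genes with a negative interaction (blue) lie below the dashed line of equal change and mostly right of zero; the 35 with a positive interaction (red) lie above it and left of zero.

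The commonest form was a change with BA that was called in unirradiated tumours only. Among the 51 genes with a negative interaction, 34 were higher with BA without radiation and not called with it, 12 were lower with BA among irradiated tumours only, 4 were higher without and lower with radiation, and 1 was called in neither. Among the 35 genes with a positive interaction, 25 were lower with BA without radiation and not called with it, 4 were higher among irradiated tumours only, 2 were lower without and higher with radiation, and 4 were called in neither. The median change with BA of the negative genes was 0.42 without and -0.21 with radiation, and that of the positive genes was -0.32 without and 0.10 with radiation, beside 0.00 and 0.01 over all genes. These forms describe the same contrast on which the genes were called and are not further evidence for it.

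By adjusted p the genes with a negative interaction were led by receptors and adhesion molecules of myeloid cells. The negative genes were not all myeloid, and genes of lymphocytes such as Il2rg, Il12rb2 and Ltb were also called. Msr1, the macrophage scavenger receptor SR-A, was measured at 236, 306 and 406 CPM (lowest, median and highest) in control, 338, 390 and 520 in BA, 379, 398 and 540 in RT and 276, 310 and 372 in BA plus RT tumours. The irradiated groups did not overlap, with every BA plus RT tumour below every RT tumour, while without radiation all 9 BA tumours lay above the control median. BA thus raised Msr1 1.36-fold without radiation and lowered it 1.32-fold with radiation, an interaction of -0.84 on the log2 scale (SE 0.13, edgeR adjusted p = 0.000138). The product of the 2 single changes was 1.89 times the control level, and the level measured after both treatments was 1.06 times the control. The Msr1 amplicon lies in a coding exon on chromosome 8, 39624219 to 39624313 (GRCm38), on the minus strand.

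Itgb2, the integrin β2 chain shared by the leukocyte adhesion receptors, was measured at 918, 1067 and 1308 CPM in control and 1463, 1686 and 1879 in BA tumours, without overlap. In irradiated tumours the values were 1173, 1459 and 2037 for RT and 1044, 1394 and 1566 for BA plus RT, and these overlapped. Its interaction was -0.77 (SE 0.12, edgeR adjusted p = 0.000159), and the combination reached 1.27 times the control against 2.17 times for the product. Itgam, the αM chain that pairs with Itgb2 to form the complement receptor Mac-1 of neutrophils and macrophages, had medians of 443 CPM in control, 646 in BA, 916 in RT and 880 in BA plus RT tumours. Both BA and RT raised Itgam when given alone, and BA made no called difference in irradiated tumours (log2 -0.09), an interaction of -0.65 (SE 0.13). Reads of the Itgam amplicon also fall in an exon of the overlapping annotated gene Gm49368. Of 14 integrin chains tested, a family looked up after the values were seen, 4 were called, beside 8.29% of all genes. All 4 were negative: Itgb2, Itgam, Itgal (-0.68) and Itga4 (-0.76).

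The 15 macrophage and monocyte markers tested had a median interaction of -0.26. Of these, 6 were called negative and 0 positive, beside 4.91% and 3.37% of all genes. The 6 called genes were Msr1, Itgam, Arg1, Cd84, Cd14 and Cd68, while Csf1r, Fcgr1 and Ccr2 were not called (-0.20, -0.26 and -0.26). Over the list the estimates were negative for 12 genes and positive for 3. The positive ones were Cd163 (1.04), Adgre1 (0.15) and Acp5 (0.12), none called. BA without radiation had 7 of the 15 higher and 2 lower, beside 12.5% and 14.5% of all genes. With radiation 0 were higher and 5 lower, beside 3.66% and 7.13%. Arg1, the arginase of suppressive macrophages, had medians of 5756 CPM in control, 8555 in BA, 7291 in RT and 6907 in BA plus RT tumours, with an interaction of -0.64 (SE 0.14). The summed level of the 15 markers overlapped between all groups, at 31660 to 49830 CPM in control, 40020 to 56860 in BA, 36480 to 53400 in RT and 30990 to 49120 in BA plus RT tumours. Its part in the results of single genes was not tested. The pan-leukocyte gene Ptprc (CD45) also had a negative interaction, -0.43 (SE 0.12, edgeR adjusted p = 0.0201), with medians of 815 CPM in control, 854 in BA, 823 in RT and 684 in BA plus RT tumours.

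Of the 6 genes for which BA was called in opposite directions on the 2 sides of the design, 4 were higher without and lower with radiation. Besides Msr1 these were Cd200r1, an inhibitory receptor of myeloid cells, Csf2rb, the signalling chain shared by the receptors for GM-CSF, interleukin-3 and interleukin-5, and Cd84, a leukocyte adhesion receptor of the SLAM family. Cd200r1 had medians of 226 CPM in control, 274 in BA, 325 in RT and 264 in BA plus RT tumours; BA raised it 1.21-fold without and lowered it 1.25-fold with radiation. Csf2rb moved from 1125 to 1375 CPM without radiation and from 780 to 670 with it. Cd84 moved from 624 to 704 and from 752 to 598. The interactions were -0.59, -0.55 and -0.57. In each of these genes all 9 BA tumours lay above the control median and at least 8 of the 9 BA plus RT tumours lay below the RT median. Csf2rb has a close paralogue in the mouse, Csf2rb2, and reads of the pair may not be separable.

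**Figure D2:**
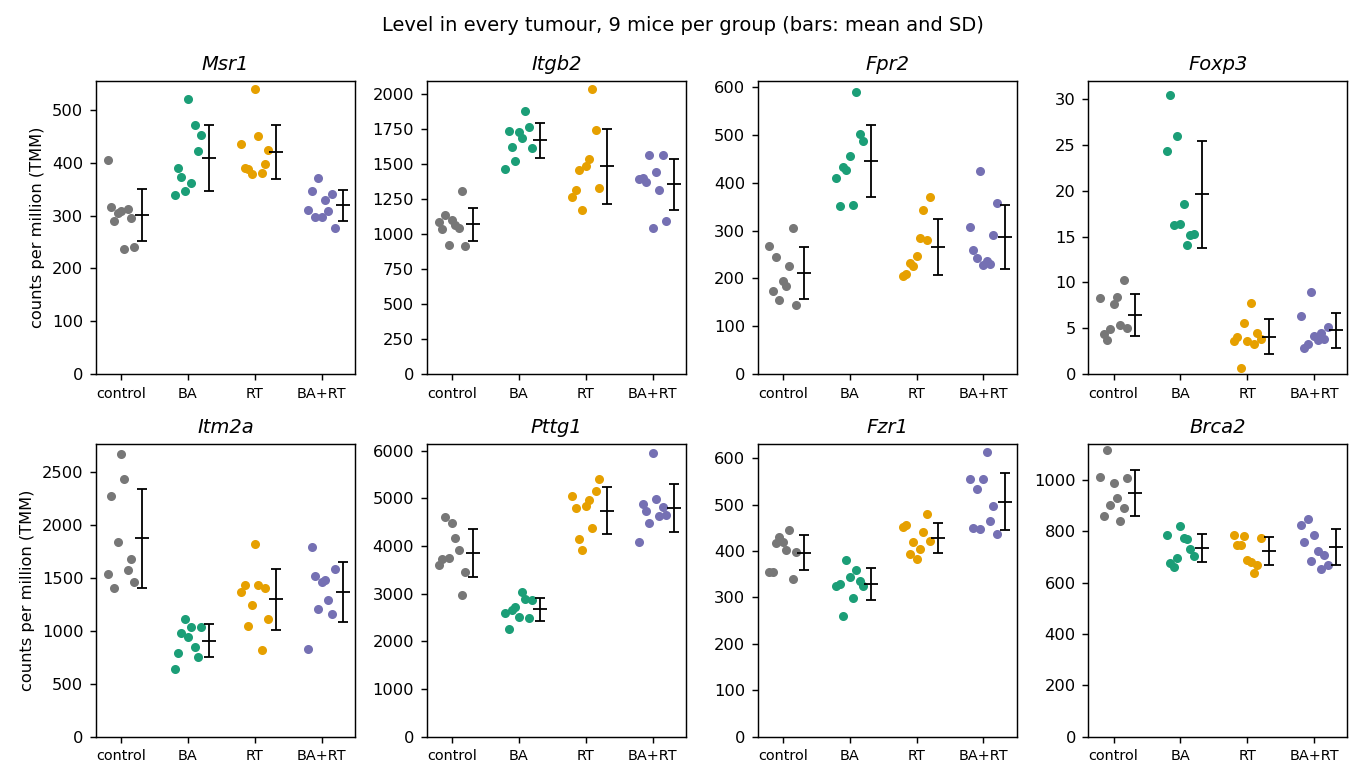
TMM-normalised CPM of 8 genes in each of the 36 tumours, 1 point per tumour, with the mean and SD of the 9 mice of each group beside the points. In the upper row all 9 BA tumours lie above the control median of each gene, while BA plus RT tumours lie below the RT tumours (Msr1) or among them; in the lower row all 9 BA tumours lie below the control median, and BA plus RT tumours lie among the RT tumours or higher.

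Some genes on the list of neutrophil markers followed. Of the 15 neutrophil markers tested, 4 had a negative and 0 a positive interaction (median -0.48), beside 4.91% and 3.37% of all genes. The 4 were Fpr2, Fpr1, Fcgr3 and Itgam, and Itgam is also on the macrophage list. Without control mouse 8 and BA plus RT mouse 40 the list had 6 negative and 1 positive calls. Fpr2, a receptor for formylated bacterial and mitochondrial peptides, was measured at 144, 195 and 306 CPM in control and at 352, 433 and 590 in BA tumours, without overlap. In irradiated tumours it was at 204, 246 and 370 for RT and 228, 259 and 425 for BA plus RT. BA raised it 2.11-fold without radiation and by a log2 change of 0.10 (SE 0.14) with it, an interaction of -0.98 (SE 0.20, edgeR adjusted p = 0.00259). Fpr1, its relative, had an interaction of -1.09 (SE 0.34). Mouse formyl peptide receptors form a family of similar genes, and shared reads are possible. S100a8, a calcium-binding protein of neutrophils, was not called, with an interaction of 0.04. Cxcr2, Il1r2, Csf3r and Cd177 were not called either (0.20, 0.10, -0.29 and -0.15). Over the list the estimates were negative for 11 genes and positive for 4. The summed level of the 15 markers had lower medians with BA in both settings, at 12320 CPM in control (8766 to 15160), 5517 in BA (5381 to 10150), 9735 in RT (7551 to 15470) and 5171 in BA plus RT tumours (4915 to 7116). Mmp9, the gelatinase stored in neutrophil granules, made up much of that sum, with medians of 7554, 1460, 6443 and 2152 CPM in the same order. BA lowered Mmp9 by 2.26 on the log2 scale without and by 1.61 with radiation, and its interaction of 0.65 was not called (edgeR adjusted p = 0.0695). The part of the summed level in the results of single genes was not tested.

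Not all neutrophil genes lost the rise with BA. Prtn3 (proteinase 3), just outside the threshold at an adjusted p of 0.0512, was raised 3.34-fold by BA without radiation and 1.72-fold with it, and both changes were called. Ctsg (cathepsin G), which like Prtn3 is stored in azurophil granules, rose 20.3-fold without and 4.10-fold with radiation, from a control range of 0 to 6.30 CPM. Its interaction of -2.31 (SE 0.95) was not called (adjusted p = 0.136); the control tumours held 0 to 13 counts each. On the inside of the threshold were Hmox1 (-0.62, adjusted p = 0.0487) and Synj1 (-0.21, 0.0493), and on its outside Prtn3 and Cd44 (0.27, 0.0517).

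Hal, the enzyme that starts histidine breakdown, was raised by each treatment given alone. Hal was measured at 195, 288 and 345 CPM in control, 350, 483 and 645 in BA, 554, 746 and 1045 in RT and 447, 533 and 935 in BA plus RT tumours. The product of its single changes was 4.60 times the control and the measured combination was 2.15 times, an interaction of -1.10 (SE 0.20, edgeR adjusted p = 0.000789). For Bst1, an ectoenzyme of myeloid cells also known as CD157, BA was called in irradiated tumours only, where the median went from 649 to 491 CPM. Fcrlb, an intracellular Fc receptor-like protein, was low throughout, with medians of 20.4 CPM in control, 33.3 in BA, 28.1 in RT and 20.2 in BA plus RT tumours, and an interaction of -1.10 (SE 0.22). Ifi30, a lysosomal thiol reductase used in antigen processing, rose 1.37-fold with BA without radiation and had medians of 1123 and 1000 CPM in the 2 irradiated groups (interaction -0.56). Anpep (aminopeptidase N, -0.55) and Rassf4 (a Ras-association protein, -0.65) were also negative, as was the amplicon named for Calr, the gene of the chaperone calreticulin, at -0.93. The Calr amplicon lies in the 3' untranslated region (chromosome 8, 84841904 to 84841997, GRCm38, minus strand), where no other gene has an annotated exon. Its medians were 31.7 to 49.0 CPM, low for a chaperone that most cells make in abundance. An inefficient amplicon and one that does not report the Calr mRNA cannot be told apart from these values.

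Mmp12, the macrophage metalloelastase, had a different form. Its levels were 486, 839 and 1285 CPM in control and 486, 719 and 851 in BA tumours, with no called change (log2 -0.32, SE 0.18). In irradiated tumours they were 668, 938 and 1426 for RT and 280, 378 and 689 for BA plus RT, a 2.35-fold fall with BA. The interaction was -0.91 (SE 0.26, edgeR adjusted p = 0.0237), in the opposite sense to Plau below. The matrix proteases tested (12 genes) thus had 1 positive and 1 negative call, beside 3.37% and 4.91% of all genes.

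The promoters of the 2 genes are shown because they were 2 of 5 with a match, among 36 negative genes that have a promoter entry, to GAGGAAGT, a sequence bound by the myeloid factor PU.1; 1 of 26 positive genes had one, as did 2.44% of all 32851 RefSeq promoter windows of the same length. The motif was chosen after the genes were known and searched on both strands in the 250 bases before each start, and a gene can have more than 1 window. Sequences are from RefSeq (GRCm38.p6), 5′ to 3′ in the direction of the gene, with the match in capitals. A match is a description of the letters and does not show binding.
Fcrlb (chr1:170912942-170913191, minus strand): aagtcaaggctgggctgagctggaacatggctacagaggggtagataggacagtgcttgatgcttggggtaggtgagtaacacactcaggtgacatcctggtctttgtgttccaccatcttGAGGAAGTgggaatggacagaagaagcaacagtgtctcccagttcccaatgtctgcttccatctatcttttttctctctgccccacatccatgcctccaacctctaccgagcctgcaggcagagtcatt
Mmp12 (chr9:7344147-7344396, plus strand): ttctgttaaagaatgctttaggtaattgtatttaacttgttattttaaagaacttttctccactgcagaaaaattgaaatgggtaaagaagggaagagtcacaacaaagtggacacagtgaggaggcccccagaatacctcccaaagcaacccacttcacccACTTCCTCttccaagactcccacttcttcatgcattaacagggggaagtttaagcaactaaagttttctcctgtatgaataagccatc
The other motifs searched were GAAANNGAA (the core of the interferon-stimulated response element), found in 3 of the 36 negative and 5 of the 26 positive genes against 7.13% of all windows, TTCNNNGAA (the gamma-activated sequence), in 6 and 3 against 7.02%, GGNNTTTCC (an NF-kB element), in 4 and 1 against 4.93%, and GTCTAGAC (a Smad-binding element), in 0 and 0 against 0.17%.

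Among lists of 5 or more tested genes, the T cell, cytotoxic and regulatory T cell lists had the most negative medians, with few genes called. Of 14 regulatory T cell genes, 3 were called negative and 0 positive (median -0.61), beside 4.91% and 3.37% of all genes. The estimates were negative for 9 and positive for 5, among them Il10 (0.47), Lrrc32 (0.38) and Tigit (0.36), none called. BA without radiation had 7 of the 14 higher and 2 lower, beside 12.5% and 14.5% of all genes. Without control mouse 8 and BA plus RT mouse 40, 7 interactions were called negative. The summed level of the 14 regulatory T cell genes had medians of 5241 CPM in control, 5105 in BA, 5670 in RT and 5732 in BA plus RT tumours. The 3 called genes, with values below, made up little of that sum. By contrast, the median log2 change with BA of the 14 genes was 0.67 without and 0.03 with radiation. Foxp3, the transcription factor that defines these cells, was measured at 3.77, 5.33 and 10.2 CPM in control and at 14.1, 16.3 and 30.5 in BA tumours, without overlap. In irradiated tumours it was at 0.668, 3.87 and 7.74 for RT and 2.90, 4.14 and 8.94 for BA plus RT. BA thus raised Foxp3 3.03-fold without radiation and made no called difference with it (log2 0.21, SE 0.26), an interaction of -1.38 (SE 0.36, edgeR adjusted p = 0.0125). These levels rest on 1 to 44 counts per tumour. The other called genes were the TNF receptor family members Tnfrsf18 (GITR), with medians of 30.8 CPM in control, 74.8 in BA, 18.8 in RT and 18.1 in BA plus RT tumours (-1.15, SE 0.27), and Tnfrsf4 (OX40), with medians of 47.8, 90.8, 43.1 and 45.8 (-0.77, SE 0.19). Of 9 TNF receptor family genes tested, a family looked up after the values were seen, 3 were called, beside 8.29% of all genes. All 3 were negative, the last being Tnfrsf25 (death receptor 3) at -1.23.

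Among 18 general T cell markers the median interaction was -0.85 and 16 were negative, but only Ccr7, the lymph node homing receptor, was called (-1.20, SE 0.30, edgeR adjusted p = 0.00845). Its medians were 28.7 CPM in control, 55.3 in BA, 21.01 in RT and 19.2 in BA plus RT tumours. The 1 negative call among 18 genes stands beside 4.91% of all genes. BA without radiation had 9 of the 18 higher, beside 12.5% of all genes, and with radiation 0 were called, beside 10.8%. Cd3e, a chain of the T cell receptor complex, shows the width of the error: medians of 7.75, 20.9, 4.22 and 4.05 CPM in the same order gave an interaction of -1.46 with an SE of 0.67 (adjusted p = 0.18). Without mice 8 and 40 the Cd3e interaction was -2.03 (edgeR adjusted p = 0.035). The T cell list then had 2 negative calls among 17 genes tested, beside 93 among all 1040 genes tested. Of 28 checkpoint and costimulatory genes, 5 were called negative and 0 positive (median -0.39), beside 4.91% and 3.37% of all genes. Without mice 8 and 40, 11 were negative and 1 positive, beside 93 and 58 of all 1040 genes tested. Cd86, a costimulatory ligand of antigen-presenting cells, was among the 5 at -0.61. Its medians were 237 CPM in control, 276 in BA, 246 in RT and 191 in BA plus RT tumours. The summed T cell markers were at 755 to 1388 CPM in control, 1289 to 1964 in BA, 812 to 1103 in RT and 763 to 1429 in BA plus RT tumours.

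Some genes of cytotoxic and natural killer cells were raised by BA in both settings. Of 16 tested, 10 were higher and 1 lower with BA without radiation, beside 12.5% and 14.5% of all genes. In irradiated tumours 4 were higher and 1 lower with BA, beside 3.66% and 7.13%. Prf1 (perforin) was measured at 0.759, 3.73 and 14.04 CPM in control, 27.9, 93.5 and 169 in BA, 2.01, 3.10 and 12.2 in RT and 8.29, 17.2 and 108 in BA plus RT tumours, so that BA raised it 15.8-fold without and 5.19-fold with radiation. Its interaction of -1.61 (SE 0.70) was not called (edgeR adjusted p = 0.16), nor was that of Gzmb (granzyme B, -1.03, SE 0.66). Without control mouse 8 and BA plus RT mouse 40 both were called, Prf1 at -2.67 (adjusted p = 0.00156) and Gzmb at -2.35 (0.000785), and the list went from 1 to 8 negative calls. With all mice the calls were Gzmc, a further granzyme, at -1.11 (SE 0.35) and Eomes, a T-box factor of effector lymphocytes, at 0.49 (SE 0.15). Eomes was the gene of the list that fell with BA without radiation (1.30-fold), and it was called in 23 of the 36 fits that left out 1 mouse, and Gzmc in 10. With scaling by the reference genes 0 of the 16 genes were called.

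Interferon-γ genes depended on the same mice. With all 36 tumours 0 of 22 genes of the interferon-γ axis were called, 12 negative and 10 positive, with a median of -0.03. Cd274, which encodes PD-L1, was at 110, 155 and 912 CPM in control, 116, 238 and 506 in BA, 148, 206 and 365 in RT and 157, 193 and 465 in BA plus RT tumours; the 912 belonged to control mouse 8, whose nearest neighbour in the group was at 259, and the 465 to BA plus RT mouse 40. Its interaction was -0.07 (SE 0.47) with all mice and -0.88 (edgeR adjusted p = 0.0458) without these 2. Without them the median of the axis was -0.67, and 4 genes were negative and 0 positive. Over all 1040 genes tested in that setting 93 were negative and 58 positive. BA without radiation then had 12 of the 22 higher where it had 1 with all mice. The 4 negative genes were Cd274, Irf8 (-0.43), Psmb9 (-0.68) and Nos2 (-1.43). The antigen presentation lists moved likewise, class II from 0 to 2 of 5 (H2-Ab1 at -1.07 and Cd74 at -0.84) and class I from 0 to 2 of 12. Mouse 8 stands out in these same genes and was not the mouse furthest from its group, so the values without it are no independent check; nothing in the labels sets it apart.

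**Figure D3:**
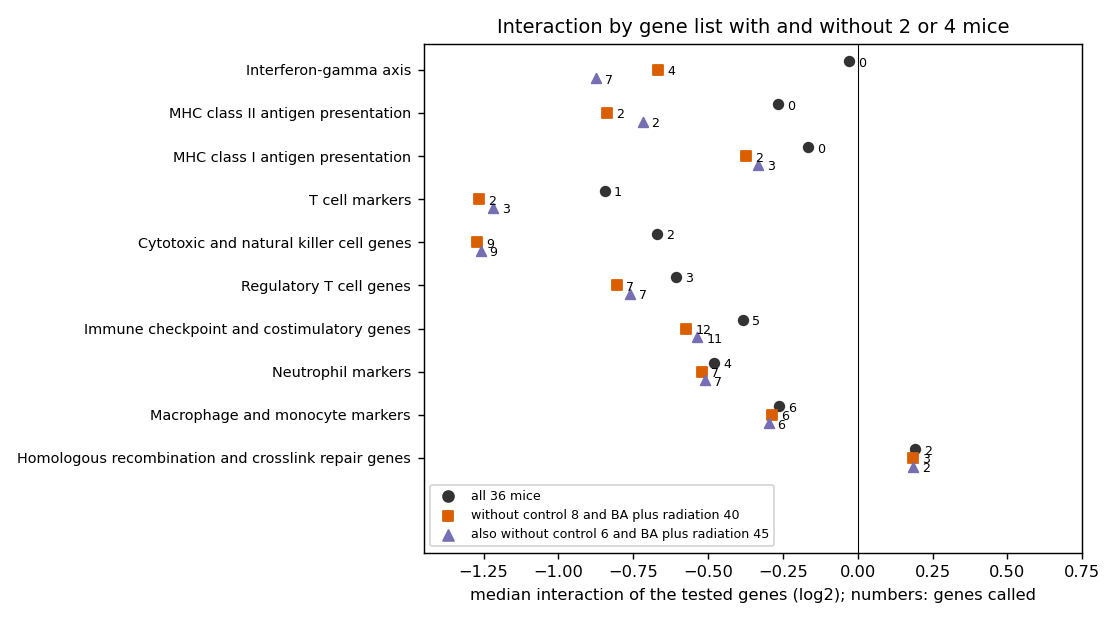
Median interaction (log2) of the tested genes of 10 lists with all 36 mice (circles), without control mouse 8 and BA plus RT mouse 40 (squares), and without control mouse 6 and BA plus RT mouse 45 as well (triangles), with the number of genes called beside each point. The interferon-γ axis goes from 0 to 4 and 7 calls, while the macrophage list has 6 in each case.

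None of the 8 genes that encode the targets of BA or their partners was called with all mice, while 1 was positive (Tgfb2) and 2 were negative (Cd274 and Pdcd1lg2) without control mouse 8 and BA plus RT mouse 40. Tgfb2, a TGF-β ligand, came closest at 0.64 (SE 0.23, edgeR adjusted p = 0.0792); it was at 0.72 (adjusted p = 0.035) without those 2 mice and at 0.47 (0.115) without the 4. It was at 714, 920 and 1720 CPM in control and 356, 434 and 576 in BA tumours, without overlap, and at 739, 1039 and 1309 in RT and 397, 648 and 1123 in BA plus RT tumours. BA lowered Tgfb2 2.22-fold without and 1.42-fold with radiation, and both changes were called. Pdcd1lg2, the second ligand of PD-1, was raised 2.64-fold by BA without radiation (medians 27.9 and 108 CPM) and was at 9.40 and 11.1 in the irradiated groups, with an interaction of -0.81 (SE 0.54). Control mouse 8 held 166 CPM of Pdcd1lg2 (next 49.7) and BA plus RT mouse 40 held 48.2 (next 17.7); without them the interaction was -1.79 (edgeR adjusted p = 0.00146). Pdcd1, which encodes PD-1, had medians of 4.69, 10.6, 2.07 and 3.73 CPM in control, BA, RT and BA plus RT tumours (-0.50, SE 0.51). Tgfb1, Tgfb3, Tgfbr1 and Tgfbr2 had interactions of -0.13, 0.23, -0.23 and -0.04. Of 20 TGF-β pathway and target genes 0 were called in the interaction, beside 8.29% of all genes. BA had 4 higher and 6 lower without radiation, beside 12.5% and 14.5% of all genes. With radiation it had 3 higher and 6 lower, beside 3.66% and 7.13%.

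The genes with a positive interaction were led by Itm2a, a membrane protein of activated T cells and of mesenchymal cells. Itm2a was measured at 1403, 1675 and 2661 CPM in control and 640, 945 and 1114 in BA tumours, without overlap. In irradiated tumours it was at 814, 1362 and 1820 for RT and 824, 1459 and 1792 for BA plus RT, which overlapped almost fully. BA lowered it 2.07-fold without radiation and did not change it detectably with radiation (log2 0.08, SE 0.14), an interaction of 1.13 (SE 0.20, edgeR adjusted p = 0.000789). The product of the single changes was 0.335 times the control, and the combination was at 0.731 times. The Itm2a amplicon lies in a coding exon on chromosome X, 107398099 to 107398193 (GRCm38), on the minus strand.

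Other positive genes encode proteins of cell division, named here one by one; most are in no list and no theme was tested. Pttg1, the securin that holds sister chromatids together until anaphase, had 2973, 3747 and 4608 CPM in control, 2251, 2665 and 3044 in BA, 3925, 4834 and 5416 in RT and 4091, 4731 and 5961 in BA plus RT tumours. BA lowered it 1.44-fold without radiation and left it at log2 0.02 (SE 0.07) with radiation, an interaction of 0.55 (SE 0.10, edgeR adjusted p = 0.00128). Fzr1 encodes Cdh1, the co-activator of the anaphase-promoting complex that marks cyclins for destruction. It was called in both directions: its medians went from 402 to 329 CPM with BA without radiation and from 423 to 498 with it (interaction 0.51, SE 0.10). All 9 BA tumours lay below the control median of Fzr1, and all 9 BA plus RT tumours lay above the RT median. Cdc25c, the phosphatase that starts mitosis, had an interaction of 0.45, Hells, a chromatin remodeller of dividing cells, 0.61, Cenpf, a centromere protein, 0.41, and Mki67, the proliferation marker, 0.36.

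Mki67 had medians of 1922 CPM in control, 1526 in BA, 1716 in RT and 1737 in BA plus RT tumours, and was called in 14 of the 36 fits that left out 1 mouse. Its promoter window is shown because 2 copies of TTTGAA, the cell cycle genes homology region through which proliferation genes are repressed in resting cells, lie close together in it (capitals); the motif was chosen after the genes were known, and 15.99% of all windows hold it, as do 3 of the 26 positive and 6 of the 36 negative genes.
Mki67 (chr7:135716380-135716629, minus strand): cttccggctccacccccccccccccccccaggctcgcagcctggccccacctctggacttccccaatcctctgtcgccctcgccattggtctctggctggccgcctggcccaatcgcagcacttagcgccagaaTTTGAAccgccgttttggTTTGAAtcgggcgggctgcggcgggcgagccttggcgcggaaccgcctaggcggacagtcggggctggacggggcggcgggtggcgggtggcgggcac
Of the 5 cell cycle and proliferation genes listed, 1 was called (Mki67), and 0 with scaling by the reference genes. The others were Birc5 (0.21), Cdc6 (0.15), Pcna (-0.01) and Cdc25a (-0.13), so the list did not go 1 way.

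Homologous recombination genes were positive in 17 of 20 cases, with a median of 0.19, where 552 of all 1038 genes were positive. Of the 20, 2 were called positive, beside 3.37% of all genes. Brca2, a tumour suppressor that acts in the repair of broken DNA, was at 841, 928 and 1117 CPM in control and 660, 732 and 821 in BA tumours, without overlap, and at 638, 745 and 785 in RT and 654, 724 and 848 in BA plus RT tumours. Each treatment alone lowered Brca2 (BA by 0.37 and RT by 0.39 on the log2 scale), and the combination was at 0.779 times the control where the product of the single changes was 0.59 times (interaction 0.40, SE 0.08, edgeR adjusted p = 0.00259). Rbbp8 (CtIP), which starts the resection of DNA ends, had medians of 426 CPM in control, 312 in BA, 379 in RT and 402 in BA plus RT tumours (0.51, SE 0.12). BA without radiation had 8 of the 20 lower and with radiation 0, beside 14.5% and 7.13% of all genes. Lig1, the DNA ligase of replication (0.43), Rad21, a cohesin subunit (0.28), and Msh6, a mismatch recognition protein (0.25, not called with scaling by the reference genes), were also positive. Of 7 end joining and 21 base excision repair genes 0 were called, beside 8.29% of all genes. A difference from that share was not tested.

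Msln and Plau were also among the positive genes. Msln, the surface protein mesothelin, was at 390, 729 and 905 CPM in control, 322, 516 and 658 in BA, 812, 960 and 1272 in RT and 997, 1268 and 1571 in BA plus RT tumours. BA lowered Msln 1.40-fold without radiation, and with radiation all 9 BA plus RT tumours lay above the RT median although the change was not called (adjusted p = 0.0572); the interaction was 0.86 (SE 0.19, edgeR adjusted p = 0.00328). The other 3 epithelial and tumour cell genes, Epcam (0.35), Muc1 (0.55) and Erbb2 (0.20), were positive and not called. The summed level of the 4 genes was 10360 to 15640 CPM in control, 8604 to 11460 in BA, 6841 to 10610 in RT and 5543 to 10360 in BA plus RT tumours. Epcam made up much of that sum, which does not stand for all 4 genes. Their mean log2 level was 8.826 to 9.451 in control, 8.403 to 8.894 in BA, 9.361 to 9.635 in RT and 9.264 to 9.818 in BA plus RT tumours. The part of either level in the results was not tested. Plau, the urokinase plasminogen activator, fell 1.62-fold with BA without radiation, from a median of 5924 to 3334 CPM, and was at 5215 and 4322 in the 2 irradiated groups (0.53, SE 0.12).

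**Figure D4:**
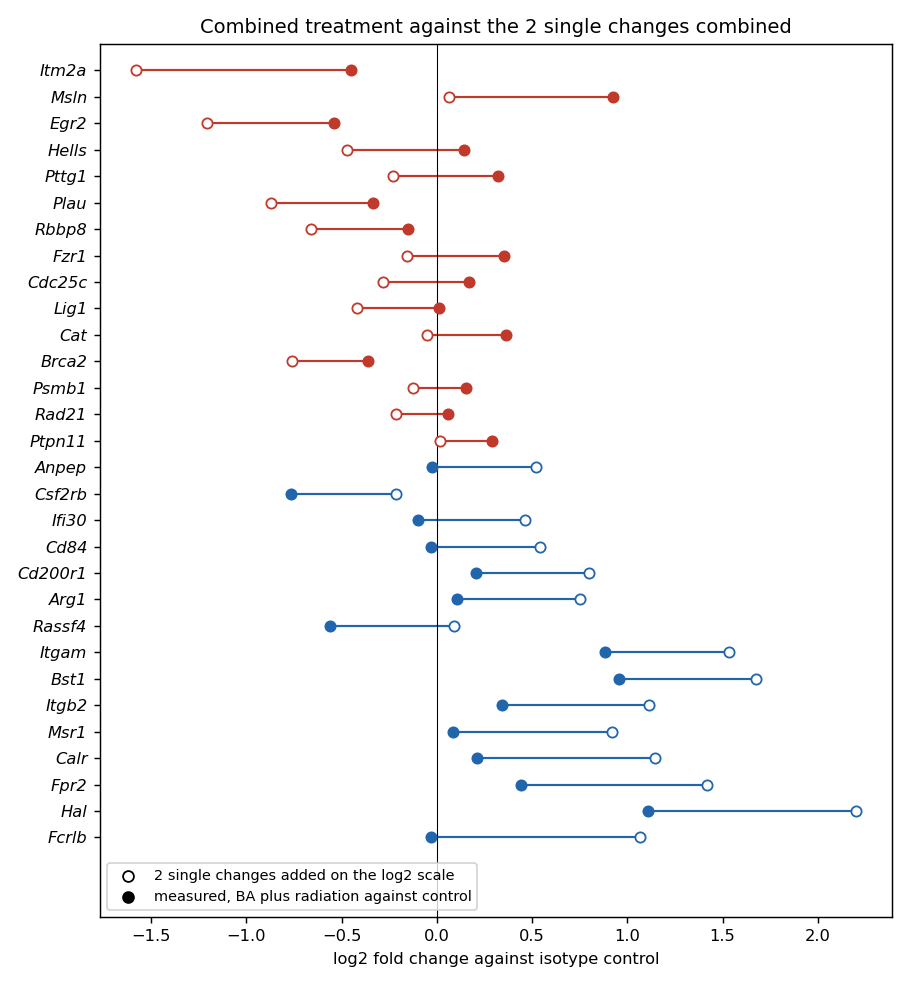
Log2 fold change against isotype control of the 30 genes with the smallest adjusted p, 15 of each sign. Open circles are the 2 single changes added and filled circles the change measured after BA plus RT, both from the same fit; the line between them is the interaction, from Itm2a at 1.13 to Fcrlb and Hal at -1.10.

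A few positive genes had the called change with BA on the irradiated side. Cat, the peroxide-degrading catalase, had medians of 601 CPM in control, 553 in BA, 619 in RT and 713 in BA plus RT tumours, and BA raised it 1.25-fold in irradiated tumours (interaction 0.42, SE 0.11). Psmb1, a proteasome core subunit, had medians of 1068, 1054, 1029 and 1201 CPM (0.28, SE 0.07). Of 47 proteasome subunit genes, a family looked up after the values were seen, 4 were called positive and 0 negative. Over all genes the shares were 3.37% and 4.91%. The 4 were Psmb1, Psmd13, Psma2 and Psmc6, at 0.28 to 0.34, and the family median was 0.06. Ptpn11, the phosphatase SHP-2 that acts downstream of PD-1 and of growth factor receptors, was lowered 1.10-fold without and raised 1.10-fold with radiation (0.27, SE 0.07). Egr2, an early growth response factor, had its called change with BA on the unirradiated side, a 1.49-fold fall, with medians of 138 CPM in control, 85.5 in BA, 85.0 in RT and 88.0 in BA plus RT tumours (0.66, SE 0.17).

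**Figure D5:**
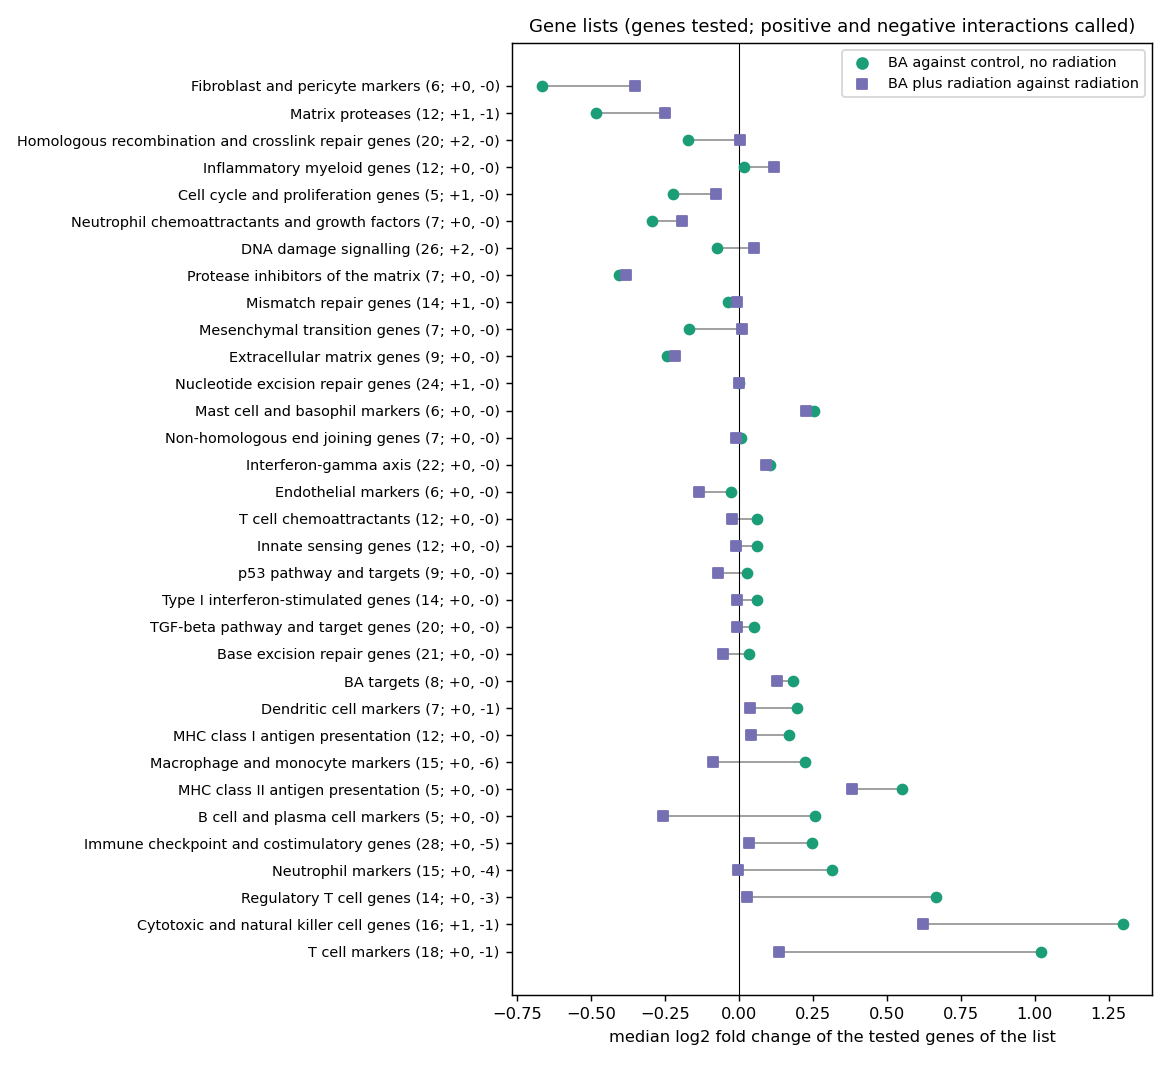
Median log2 fold change with BA of the tested genes of each list with 5 or more such genes, without radiation (circles) and with radiation (squares), ordered by the median interaction; the numbers in brackets give the genes tested and the positive and negative interactions called. T cell markers go from 1.02 to 0.13, cytotoxic genes from 1.30 to 0.62, and homologous recombination genes from -0.17 to 0.00.

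Most other lists held no called interaction, beside 8.29% of all genes. Type I interferon-stimulated genes (0 of 14), inflammatory myeloid genes (0 of 12), innate sensing genes (0 of 12), p53 pathway genes (0 of 9), extracellular matrix genes (0 of 9), fibroblast and pericyte markers (0 of 6) and endothelial markers (0 of 6) were among them. In the fibroblast list BA had 4 of 6 genes lower without and 2 lower with radiation, beside 14.5% and 7.13% of all genes. The median change of the list went from -0.67 to -0.35. Acta2, the smooth muscle actin of myofibroblasts, fell 2.12-fold with BA without radiation and was at -0.40 on the log2 scale, not called, with it; its interaction of 0.68 (SE 0.27) was not called. The largest negative estimate of all, -3.20 for the immunoglobulin light chain gene Igkc, had an SE of 1.44 and was not called. Together the lists held 9 of the 35 positive and 18 of the 51 negative genes, so that most called genes lie outside them.

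The 9 reference genes built into the panels had a median interaction of 0.00, and 1 of them, Thap3, was called at 0.29, a size similar to Psmb1, Rad21, Ptpn11 and Msh6. Of the 54 genes present on both panels, 51 could be tested on each, and their interactions correlated at 0.903 between panels, which read the same RNA. Cdc25c, Emp1 and Thap3 were called and had the same sign on the other panel, where Cdc25c and Emp1 were called and Thap3 was not (0.17, edgeR adjusted p = 0.254). Fasl, Rfx1 and Rpa1 were called only on the panel not used, Fasl at -1.74 (edgeR adjusted p = 0.00381) there against -0.88 (0.225) on the panel used. Rfx1 is also a reference gene, at -0.40 (edgeR adjusted p = 0.0307) there against -0.29 (0.0759), opposite in sign to Thap3.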

How the data were processed

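The members and gene lists were chosen with earlier results of these data known. The authors deposited raw counts per amplicon, with genomic DNA control amplicons, and a table of regularised log2 values for each panel (per the file headers). The submitters' processing notes name DESeq2 and the builds GRCm38 and GRCh38; no source names the aligner or the counter, or says whether molecular barcodes were collapsed. Against GENCODE annotation, 1277 of 1278 amplicons lay inside the named mouse gene on GRCm38, which is the build printed. The 10 genomic DNA control amplicons (19 counts in all) were dropped. Each panel was normalised on its own (TMM) and fitted in edgeR 4.0.16 (R 4.3.3) with 1 mean per group, a low-count filter by group and robust quasi-likelihood F tests; a gene on both panels was taken from the panel with the larger total. The interaction and the 4 single contrasts were adjusted over 1038 genes each. Per-gene CPM used TMM library sizes. No 2 libraries of a group were alike within sampling noise (chi-square per degree of freedom at least 13.98). Tested on simulated counts for 1040 genes with interactions of known size, the fit called 54% of genes at log2 0.5, 53.1% at -0.5, 82% at 1, 96% at -1 and 0.8% of unchanged genes. The simulated counts were drawn separately for each gene with the fitted dispersions, without other treatment changes or mice that stand apart. These shares therefore need not hold for the real tumours. Alternatives were other scalings, DESeq2 1.42.0, limma 3.58.1 on counts and on the deposited log2 values, other filters, equal depth, the other panel, and mice left out.

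Named genes were the 15 of each sign with the smallest adjusted p, the genes of BA's targets, up to 3 genes per list with the smallest p, and the 2 genes on each side of the threshold; other called genes and the gene families were named after their values were seen. The library totals bear on counting error only. The result of 1 gene is not reported here.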

Additional observations from a re-analysis of the deposited data

Results flagged for a closer look

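In 152 groups of 9 tumours (the 30 leading genes and 8 target genes, 4 groups each), 11 held a tumour apart from the others by a gap large against the range of its group; chance gives about 1 in 20, or 8. Control mouse 8 was the highest of its group for Cd274 (912 CPM, next 259) and Pdcd1lg2 (166, next 49.7) and the lowest for Cat (494, next 560) and Psmb1 (958, next 1050). BA plus RT mouse 40 was the highest for Cd274 (465, next 264) and Pdcd1lg2 (48.2, next 17.7), and BA plus RT mouse 45 was the highest for Cat (1030, next 829) and the lowest for Tgfb3 (554, next 772). The others were BA plus RT mouse 44, lowest for Psmb1 (1030, next 1170), RT mouse 23, highest for Msr1 (539, next 451), and BA mouse 10, lowest for Calr (26.5, next 38.8).

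The effect of BA differed between irradiated and unirradiated tumours, by the test of the difference itself, for 86 genes, 35 positive and 51 negative. For 6 of them BA was called in opposite directions: Msr1 (-0.84), Cd200r1 (-0.59), Cd84 (-0.57), Csf2rb (-0.55), Fzr1 (0.51) and Ptpn11 (0.27).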

How the results depend on the processing

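All 86 interactions kept their sign under each of the 13 other settings and without each mouse. Without control mouse 8 and BA plus RT mouse 40 there were 151 (58 positive, 93 negative), and without control mouse 6 and BA plus RT mouse 45 as well, a setting chosen after seeing the data, 182 (75 and 107). Scaling by the reference genes left 22 positive genes and 56 of the 86 called, and DESeq2's test called 58 positive genes; the cause was not tested. Leaving out 1 mouse gave 71 (without BA plus RT mouse 39) to 106 (without BA plus RT mouse 40) interactions, 28 to 48 positive and 41 to 66 negative; it gave 242 to 349 genes for BA without radiation, 76 to 153 with it, 399 to 483 for radiation without BA and 514 to 586 with it. The 30 genes with the smallest adjusted p were called in all 36 of these fits; of these, Psmb1, Cdc25c and Cat were not called with reference gene scaling. No paired analysis was possible because mouse numbers are not shared between groups. With counts thinned to equal depth 74 of the 86 were called.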
